A study of Mus musculus with 2 samples.

Results

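The genes described here are the Hes and Hey transcriptional repressors Hes1, Hes5, Hes6, Hey1, Hey2 and Heyl and the DNA-binding factors Rbpj and Rbpjl. They were taken by gene symbol from a deposited table of counts per gene, in which all 8 have a row among 19595 genes. By its title the series is about Ccdc25, which encodes a protein with a coiled coil, in the making of neurons. RNA came from neural stem cells of the brain, taken from ICR mice at embryonic day 13. The control library bears the label psicor and the genotype WT, and the other bears the label sh1 and the genotype KO, which the design text calls a knockdown and which is called the sh1 library below. Both are from the same cell type, strain and stage, and the labels name no further treatment. The design text speaks of triplicates, but the table used here gives 1 column of counts per group. How many cultures stand behind a column is not stated. Hence no difference below has a replicate check, none was tested, and every interval covers counting error only.

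Notch receptors are cut after they bind a ligand on a neighbouring cell, and the freed intracellular domain joins Rbpj on DNA and turns it from a repressor into an activator. Hes and Hey genes are the classic targets. Their basic helix-loop-helix proteins are repressors, the Hes ones recruit Groucho/TLE corepressors, and Hes1 and Hes5 keep proneural genes silent, which holds neural progenitors undifferentiated and, later, favours glial fates. Hes6 is an exception, since it is induced by proneural factors and counteracts Hes1. Rbpjl is a relative of Rbpj that binds a like DNA sequence without the Notch intracellular domain and is best known from the pancreas.

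The ends of the coding sequences show how the 6 repressors differ at the tetrapeptide that in Hes proteins binds Groucho/TLE. The last 14 codons of each are printed 5′ to 3′ without the stop codon, from the principal transcripts of GENCODE M21, with the 4 codons of that position in capitals.
Hes1: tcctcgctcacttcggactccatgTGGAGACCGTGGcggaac
Hes5: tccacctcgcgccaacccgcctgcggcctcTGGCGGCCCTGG
Hes6: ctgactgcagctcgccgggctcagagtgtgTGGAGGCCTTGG
Hey1: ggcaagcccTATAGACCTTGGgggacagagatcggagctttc
Hey2: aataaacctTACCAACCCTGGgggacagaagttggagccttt
Heyl: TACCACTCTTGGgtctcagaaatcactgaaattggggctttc
In the 3 Hes genes these codons read tryptophan, arginine, proline, tryptophan, the known WRPW motif, and they end the protein in Hes5 and Hes6 and stand 2 codons before its end in Hes1. All 3 Hey genes begin the position with a tyrosine codon, followed by 7 further codons after it in Hey1 and Hey2 and 10 in Heyl. Hey1 keeps the arginine and proline codons, Hey2 keeps only the proline codon, and Heyl has neither.

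Several of the promoters, but not all that were searched, carry DNA words that Rbpj reads. RefSeq upstream sequence (GRCm38.p6) was at hand for 5 of the 8 genes, Hes5, Hes6, Hey2, Rbpj and Rbpjl, and the 250 bases before each start site were searched on both strands. The Rbpj core TGGGAA lies in 21.6% of 32851 promoters, and the longer form GTGGGAA, which contains the core, in 5.42%. The Hes5 promoter is shown whole (chr4:154960673-154960922, plus strand) because it has both of its cores in the longer form, which 0.161% of all promoters hold at 2 or more places. Short stretches of Hey2 (chr10:30842958-30843017, minus strand) and Rbpjl (chr2:164403062-164403121, plus strand) show their single copies. Capitals mark GTGGGAA or its reverse complement.
Hes5: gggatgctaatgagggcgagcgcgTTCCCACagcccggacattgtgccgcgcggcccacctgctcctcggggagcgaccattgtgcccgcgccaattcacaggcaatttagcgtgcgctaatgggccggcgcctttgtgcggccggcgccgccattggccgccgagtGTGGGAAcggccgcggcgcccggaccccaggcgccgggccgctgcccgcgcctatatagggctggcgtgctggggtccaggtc
Hey2: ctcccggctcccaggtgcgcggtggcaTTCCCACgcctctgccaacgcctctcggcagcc
Rbpjl: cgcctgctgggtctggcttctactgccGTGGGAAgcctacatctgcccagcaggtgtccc
In Hes5 the 2 copies begin 226 and 83 bases upstream of the start site and point in opposite directions. In Hey2 the copy begins 207 bases upstream, and in Rbpjl 105 bases upstream, inside an intron of Matn4. Rbpj itself has 2 start sites with the core alone, at 149 and 65 bases before the first and at 205 bases before the second, where the last 2 are the same stretch of DNA. Neither of the 2 Hes6 start sites has the core. Of the words that Hes proteins read, CACNAG (the N-box, in 36.7% of promoters) occurs once in Hes6 and once in Rbpjl, and CACGNG (in 23.5%) once in Hes6. These matches describe letters in the window and are not measured binding sites.

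**Figure D1:**
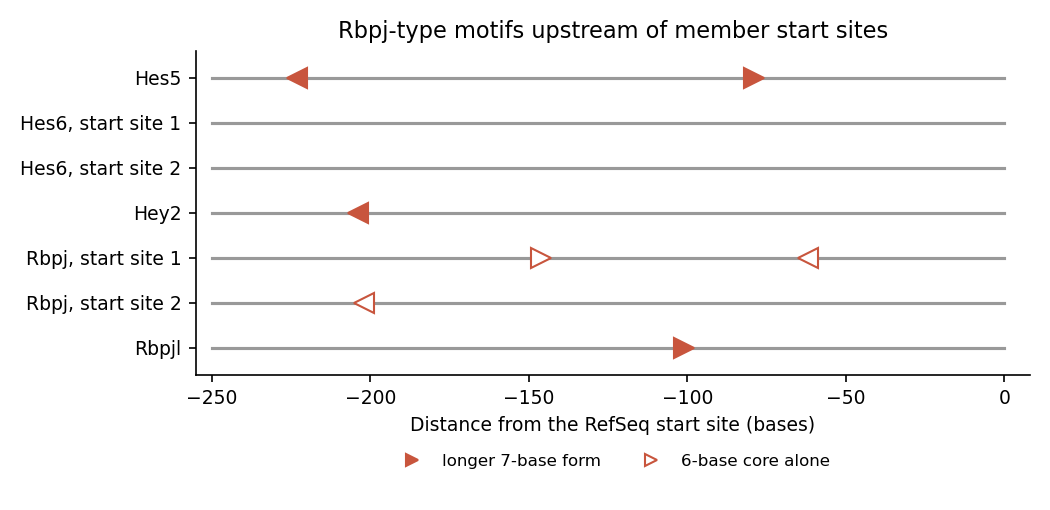
Rbpj-type motifs in the 250 bases before each RefSeq start site of 5 members, with the distance from the start site in bases on the horizontal axis. Filled arrowheads are the 7-base form, open ones the 6-base core alone, and their direction is the strand; Hes5 has 2 filled arrowheads, Hey2 and Rbpjl 1 each, and both Hes6 lines are empty.

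The table assigned 16549682 counts to the control and 16058407 to the sh1 library. Levels are given as CPM, counts relative to library size after TMM scaling, which aligns the bulk of the genes between libraries. A floor of 3 counts equals 0.178 (control) and 0.190 CPM (sh1). Ccdc25, the targeted gene, had 553 control and 411 sh1 counts, 32.8 and 26.1 CPM, a ratio of 0.794 (0.697 to 0.904). It was thus lower where the labels have it knocked down, by a small margin. Neural stem cell markers, 8 of 8 of which passed the expression minimum, summed to 6560 and 8506 CPM. In bulk RNA fewer cells of a type and less RNA per cell cannot be told apart.

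Of the 8 genes, 7 were higher and 1, Hes1, was lower in the sh1 library. With a threshold of 2-fold, 5 were higher (Hes5, Hey2, Heyl, Rbpj and Rbpjl), 0 were lower and 3 lay within 2-fold (Hes1, Hes6 and Hey1). The background is the 14158 genes whose mean over both libraries reached 1 CPM, of which 7.64% were higher by 2-fold or more and 7.76% lower by as much. The median log2 fold of the 8 was 1.16, against -0.0042 for all genes. It was the same whether Rbpjl, at 0 in the control, is taken as fitted or against the 3-count floor. A ratio of 1 lay outside the counting interval for all 8, but the interval also lay above 1 for 33.2% and below 1 for 33.6% of all genes, so at this depth such an interval is common. All 8 genes passed the minimum, and Rbpjl did so only through the library in which it was high.

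**Figure D2:**
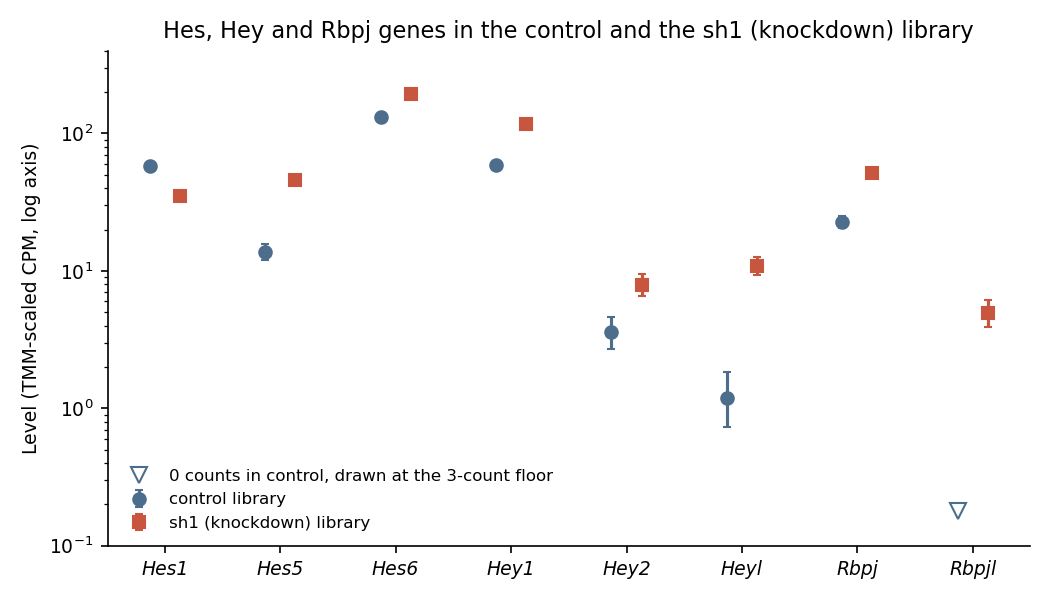
Level of each gene in CPM on a log axis in the control (circles) and knockdown (squares) library, with exact Poisson 95% intervals for counting error and an open triangle at the 3-count floor where the count is 0. Hes1 is the 1 gene whose square lies below its circle, from 58.3 to 35.0 CPM, and the gap is widest for Heyl and Rbpjl.

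Hes1 and Hes5, the main Notch effectors of embryonic neural progenitors, differed in opposite directions. Hes1 (ENSMUSG00000022528, chromosome 16, 30064384 to 30067796, plus strand) had 982 control and 552 sh1 counts. Its level was 58.3 and 35.0 CPM, a ratio of 0.601 (0.540 to 0.667) and a log2 fold of -0.73. Of all genes past the minimum, 11.9% had a lower log2 fold.

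Hes5 (ENSMUSG00000048001, chromosome 4, 154960923 to 154962371, plus strand) had 232 control and 720 sh1 counts. Its level was 13.8 and 45.7 CPM, a ratio of 3.32 (2.86 to 3.86) and a log2 fold of 1.73, with 2.80% of all genes higher. Hes5 shares 433 of its 1363 exonic bases with Gm20421 on the opposite strand. Whether reads were counted by strand is not stated, which leaves the size of the Hes5 value uncertain.

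The balance between both genes can be read within each library, free of any scaling between them. Hes5 made up 19.1% of the joint Hes1 and Hes5 counts in the control (exact binomial 95% interval 16.9% to 21.4%) and 56.6% in the sh1 library (53.8% to 59.3%). The more counted gene of the pair was thus Hes1 in the control and Hes5 in the sh1 library. Their joint raw count, not scaled for library size, was 1214 in the control and 1272 in the sh1 library.

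Hes6 (ENSMUSG00000067071, chromosome 1, 91411483 to 91414038, minus strand) was the member with the most counts in both libraries, 2222 in the control and 3038 in the sh1 library. Its level was 132 and 193 CPM, a ratio of 1.46 (1.38 to 1.54) and a log2 fold of 0.55, within 2-fold. It held 64.7% of the counts of the 3 Hes genes in the control (63.0% to 66.3%) and 70.5% in the sh1 library (69.1% to 71.8%). The Hes1 part of that total was 28.6% (27.1% to 30.1%) in the control and 12.8% (11.8% to 13.8%) in the sh1 library.

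All 3 Hey genes, known from blood vessels and heart as well as from neural progenitors, were higher in the sh1 library. Hey1 (ENSMUSG00000040289, chromosome 3, 8663359 to 8667256, minus strand) had 997 and 1856 counts, or 59.2 and 118 CPM. Its ratio of 1.99 (1.84 to 2.15) lies just inside the 2-fold threshold, and its interval spans it. Hey2 (ENSMUSG00000019789, chromosome 10, 30832359 to 30842801, minus strand), the member next above the threshold, had 60 and 125 counts, or 3.56 and 7.93 CPM. Its ratio was 2.23 with a wide interval (1.62 to 3.08), so Hey1 and Hey2 fall on different sides of 2-fold without their ratios being distinguishable by counting error.

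Heyl (ENSMUSG00000032744, chromosome 4, 123233556 to 123249875, plus strand), which in the adult marks vascular mural cells and is also a Notch target in progenitors, had 20 control and 172 sh1 counts. Its level was 1.19 and 10.9 CPM, a ratio of 9.19 (5.77 to 15.4) and a log2 fold of 3.17. Only 97 of the 14158 genes (0.685%) had a larger log2 fold. Within the Hey genes, Heyl took 1.86% of counts in the control (1.14% to 2.85%) and 7.99% in the sh1 library (6.88% to 9.22%). The Hey1 part was 92.6% (90.8% to 94.1%) and 86.2% (84.7% to 87.6%), and that of Hey2 was 5.57% (4.28% to 7.11%) and 5.81% (4.86% to 6.88%). Hey1 therefore remained the main Hey transcript by counts in both libraries.

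**Figure D3:**
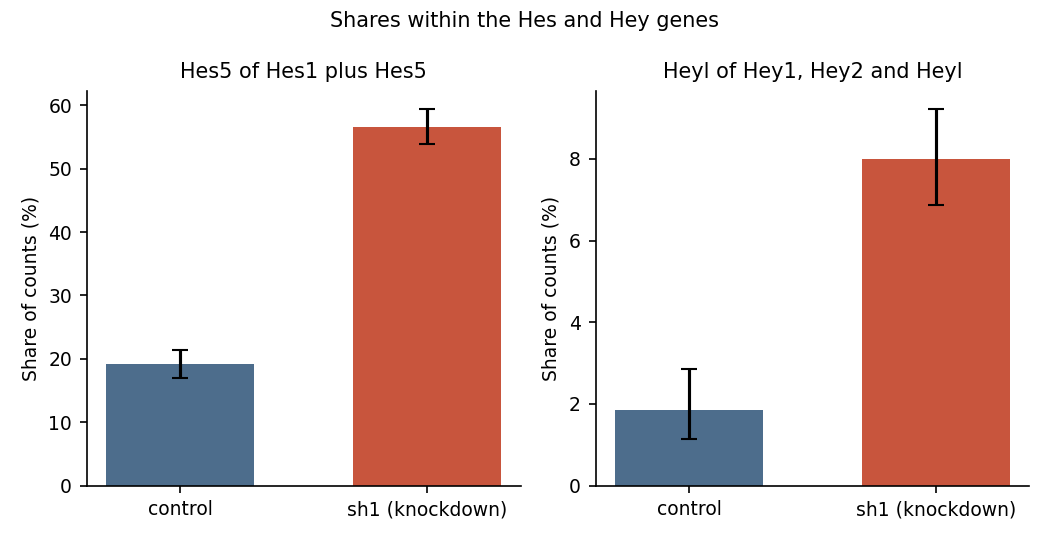
Share of counts in percent for Hes5 among Hes1 plus Hes5 (left) and for Heyl among the 3 Hey genes (right), in the control and sh1 library, with exact binomial 95% intervals and axes of different range that start at 0. Hes5 goes from 19.1% to 56.6% and Heyl from 1.86% to 7.99%.

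Rbpj (ENSMUSG00000039191, chromosome 5, 53466152 to 53657362, plus strand), the DNA-binding partner of all Notch receptors, had 384 control and 814 sh1 counts. Its level was 22.8 and 51.6 CPM, a ratio of 2.27 (2.00 to 2.56) and a log2 fold of 1.18. Of all genes, 5.80% had a larger log2 fold. The genes Hey1, Hey2 and Rbpj thus had ratios near 2, below those of Hes5 and Heyl. The intervals of Hey2 (1.62 to 3.08) and Hes5 (2.86 to 3.86) overlap, however, so counting error does not separate this pair.

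Rbpjl (ENSMUSG00000017007, chromosome 2, 164403141 to 164415448, plus strand) had 0 control and 78 sh1 counts. Its level in the sh1 library was 4.95 CPM, 27.8-fold the 3-count floor of the control. The counting interval of its ratio began at 22.1, below that value. Of the 14158 genes past the minimum, 12 had 0 control counts. A gene at 0 in the control can pass only through its sh1 level, which limits this number. Rbpjl shares 149 of its 5732 exonic bases with Matn4, an extracellular matrix gene on the opposite strand, and Matn4 had 49 control and 759 sh1 counts, a ratio of 16.6 (12.4 to 22.6). The table does not show where in the gene reads fell, and whether Matn4 transcripts contributed to the Rbpjl count was not tested.

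**Figure D4:**
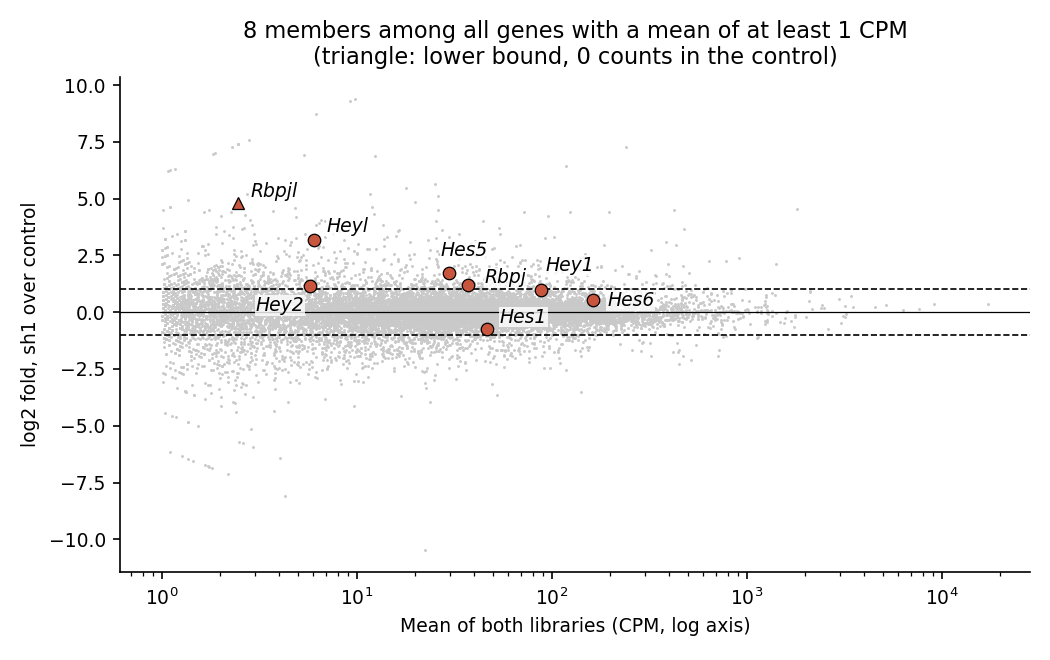
The log2 fold of each gene with a mean of at least 1 CPM (grey) against its mean level on a log axis, with the 8 members in red and dashed lines at 2-fold. Heyl at 3.17 and Rbpjl, drawn as a triangle, stand above most genes. The triangle is the sh1 level against the 3-count floor of the control and leaves out the counting error of the sh1 count. Hey1 lies just under the upper line, and Hes1 at -0.73 is the 1 member below 0. Grey points of genes at 0 in a library depend on the prior count.

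Levels of different genes were compared per length, as CPM per kilobase of all annotated exons. In the control the order was Hes6 at 72.9, Hes1 at 28.6, Hey1 at 18.1, Hes5 at 10.1, Rbpj at 1.79, Hey2 at 0.775 and Heyl at 0.232, with Rbpjl at 0. No neighbouring pair of the 7 detected genes had overlapping counting intervals. In the sh1 library it was Hes6 at 107, Hey1 at 36.0, Hes5 at 33.5, Hes1 at 17.2, Rbpj at 4.05, Heyl at 2.13, Hey2 at 1.73 and Rbpjl at 0.863. There the intervals of Hey1 (34.4 to 37.7) and Hes5 (31.1 to 36.0) overlapped, as did those of Heyl (1.83 to 2.48) and Hey2 (1.44 to 2.06). Hes1 stood in place 2 in the control and in place 4 in the sh1 library. Summed per length, the 3 Hes genes were at 112 and 157 and the 3 Hey genes at 19.1 and 39.9 CPM per kilobase, ratios of 1.41 and 2.09.

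Genes whose difference was most like that of a member were sought among protein-coding genes with a mean level within 1.5 times its own. With 2 libraries the likeness is only that of 1 log2 fold. The nearest to Hes1 were Cdca2 (log2 fold -0.74) and Wdr7 (-0.74), among 3115 genes. Lrrc75b (1.71) and Frmpd1 (1.70) were nearest to Hes5 among 3043 genes, and Cmtm5 (3.16) and Tmem88b (3.19) to Heyl among 1214.

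Upstream of the members, the Notch ligands differed in both directions. Of 8 ligands and related proteins past the minimum, 3 were higher and 1 was lower by 2-fold or more, and the median log2 fold was -0.18. It was -0.70 over the ligands with a mean of 10 CPM or more. The higher ones were Dll1, Dll3 and Dll4. Of the 8 genes, 4 were above their control level. Dll3, a ligand that acts inside the cell and inhibits Notch, was at 70.9 and 288 CPM, with a ratio of 4.06 (3.81 to 4.33). Dll1, the main activating ligand of neural progenitors, was at 69.8 and 185 CPM, with a ratio of 2.65 (2.48 to 2.84). Dll4, a vascular ligand, had 14 and 44 counts, a ratio of 3.36 (1.81 to 6.64), and passed the minimum only through the sh1 library, at 0.831 and 2.79 CPM. Jag2, the gene that was lower and outside the naming rule, was at 41.3 and 19.4 CPM, with a ratio of 0.470 (0.409 to 0.538). Dll1 has 867 and Dll4 214 exonic bases in common with an antisense gene.

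Of the 4 Notch receptors none passed 2-fold, and their median log2 fold was 0.76. Notch3 had a log2 fold of 0.94, Notch2 0.82 and Notch1, the most counted of them, 0.71, with counting intervals above 1. Notch4 had 28 and 37 counts, a ratio of 1.41 (0.841 to 2.40), an interval that includes 1. The 9 genes of sheddases and gamma-secretase, the enzymes that release the intracellular domain, lay within 2-fold with a median of 0.11, led by the subunit genes Aph1a at 0.60, Ncstn at 0.41 and Psenen at 0.38. Of 17 Fringe genes and other modulators, 1 was 2-fold higher and 0 lower, with a median of 0.075. Mfng, a glycosyltransferase that modifies Notch, was at 41.1 and 90.5 CPM, with a ratio of 2.20 (2.01 to 2.42), while Neurl1b and Neurl1a, ubiquitin ligases of the Neuralized family, had log2 folds of -0.88 and -0.80.

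The partners that Rbpj and the Hes proteins work with mostly lay within 2-fold. Of 8 coactivator genes 0 passed 2-fold, and their median log2 fold was 0.21. The Mastermind genes were furthest, Maml3 at -0.83, Maml2 at 0.81 and Maml1 at 0.56. Of 15 corepressor genes, 1 was higher and 0 lower. It was Cir1, which bridges Rbpj to histone deacetylases, at 6.53 and 15.0 CPM, a ratio of 2.30 (1.83 to 2.91). Cir1 shares 270 exonic bases with Sp9 and 101 with Scrn3 on the opposite strand. Spen and Kdm5a, which act with Rbpj in repression, had log2 folds of 0.83 and 0.76, and the list's median was 0.021. It was -0.031 after scaling to total counts. The Groucho/TLE family includes the corepressors that bind the WRPW motif of Hes proteins. Of its 6 genes past the minimum, only Tle1 passed 2-fold, at 66.1 and 178 CPM, a ratio of 2.69 (2.51 to 2.88). Tle6 had a log2 fold of -0.78 and Aes, a short family member, -0.31, and the median was -0.0059.

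**Figure D5:**
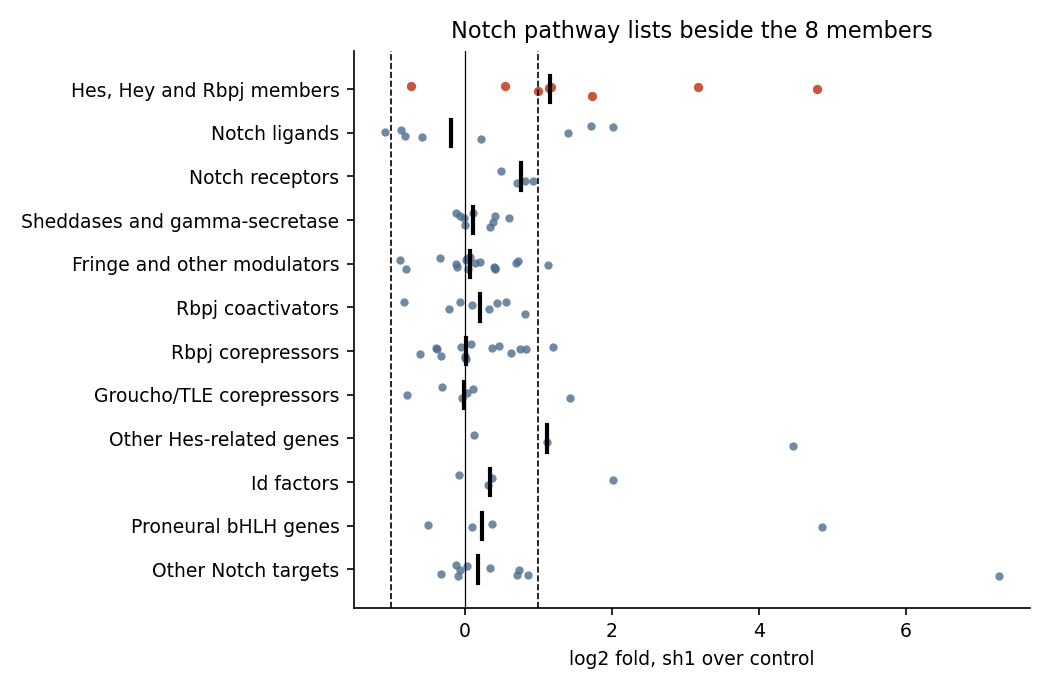
The log2 fold of every gene past the minimum in each Notch pathway list (blue) and of the 8 members (red, Rbpjl against the 3-count floor), with a black bar at the median and dashed lines at 2-fold. The members' median is 1.16, and that of the other Hes-related genes, 1.12, rests on 3 genes and is 0.13 at a minimum of 10 CPM; the medians of the other lists lie within 2-fold.

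Genes related to the Hes family, or regulated by it, were looked at by list as well. Of 6 other Hes-related genes, 5 are in the table and 3 passed the minimum, 2 of them at least 2-fold higher. Helt, a repressor of the same class, had 5 and 113 counts, a ratio of 24.2 (10.05 to 75.8), and passed the minimum only through the sh1 library, at 0.297 and 7.17 CPM. Bhlhe41 had 38 and 78 counts, a ratio of 2.19 (1.47 to 3.32), and Bhlhe40 a log2 fold of 0.13. The list's median of 1.12 thus rests on 3 genes, and at a minimum of 10 CPM, which Bhlhe40 alone reached, it was 0.13. Under the minimum, and so named after its value was seen, Hes3, another repressor of early neural progenitors, had 1 count in the control and 25 in the sh1 library, a ratio of 26.7 (4.37 to 1097). Hes7 had 11 and 13 counts.

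Of the 4 Id genes, whose proteins bind bHLH factors and block them, 1 was higher. This was Id4, at 26.5 and 108 CPM, while Id1 and Id3 had log2 folds of 0.37 and 0.32. Among 4 proneural bHLH genes past the minimum, of 10 listed, 1 was higher and 0 lower, with a median of 0.23. Neurog2, a gene that Hes1 represses in progenitors, had 22 and 611 counts, a ratio of 29.7 (19.4 to 47.7). Olig2 had a log2 fold of 0.37 and Neurod1 of -0.50.

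Of 10 other genes reported as Notch targets, 1 passed 2-fold upwards and 0 downwards, with a median of 0.18. Gfap, an astrocyte filament gene and also one of the astrocyte markers below, had 52 and 7579 counts. Sox9 and Nfia, both gliogenic factors, had log2 folds of 0.86 and 0.74. Of the 10 genes, 6 were above their control level. Outside the naming rule, Nrarp had a log2 fold of 0.026, Myc of -0.064, Ccnd1 of -0.089, Dtx1 of -0.12 and Cdkn1a of -0.32. Over all lists, with each gene counted once, 86 genes passed the minimum. Of them 11 were higher by 2-fold or more and 1 was lower, and their median log2 fold was 0.12. Of all genes past the minimum, 7.64% were higher and 7.76% lower by as much. Dll4 and Helt, which are among the 11, passed the minimum only through the sh1 library. Notch1 and Dtx1 stand in 2 lists each. Notch1, Notch2, Notch3, Aph1a, Ncstn, Psenen, Neurl1a, Maml1, Maml2, Spen, Kdm5a, Tle1, Hes7, Bhlhe40, Bhlhe41, Id4, Neurod1 and Nfia also have exonic bases in common with another gene, which leaves their values uncertain. The same holds for Nrarp, Ccnd1 and Cdkn1a.

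Markers of several cell types also differed between the libraries, some higher and some lower in the sh1 library. The 6 astrocyte markers, 4 of them at least 2-fold higher, summed to 375 and 1548 CPM, and the 7 markers of the oligodendrocyte lineage, 5 of them higher, to 2881 and 4610 CPM. The 7 neuronal markers, 5 of them at least 2-fold lower, summed to 2598 and 1156 CPM. For Hey1, Hey2 and Heyl, which vessels also express, the vascular markers are given by gene. The 4 endothelial markers in the table, of 6 listed, summed to 2.97 and 1.27 CPM in the control and sh1 library. Pecam1 had 8 and 9 counts, Kdr 25 and 9, Emcn 10 and 2, and Cdh5 7 and 0. Of 7 pericyte and smooth muscle markers, 4 are in the table and summed to 341 and 178 CPM. Acta2 was lower at 261 and 22.8 CPM, and without it the other 3 summed to 79.8 and 155 CPM. Of these Notch3, also one of the receptors above, was at 78.2 and 149 CPM, Pdgfrb at 1.13 and 5.14 CPM, and Rgs5 had 8 and 7 counts. The 6 microglia and macrophage markers summed to 17.6 and 10.97 CPM, with Csf1r and Cx3cr1 at 0 in the sh1 library, and the 5 mesenchyme markers to 58.7 and 15.3 CPM, with Lum at 0 there. The part of any of these cell types in the Hes, Hey and Rbpj values was not tested.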

How the data were processed

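RNA of 1 control and 1 knockdown library was analysed from a single table of 19595 genes. Of tools, HTSeq 0.6.0, TopHat2 2.0.12 and Bowtie2 2.2.3 are named in the submitters' processing notes, with the build mm9 and without order or settings. The table's positions are those of GRCm38, since 18241 genes have the same start and end in GENCODE M21, and are printed as given. Per the file headers, the authors deposited a raw count for each gene in both libraries. They also deposited CPM, a fold (ratio) of these CPM, its log2, and p-values from a test that is not named. The deposited p-values were not used, and the deposited CPM served only as an alternative.

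Counts were scaled with TMM in edgeR 4.0.16 (factors 1.02 and 0.982). For log2 folds 0.5 was added to each count, while CPM and ratios carry no such addition. The minimum was a mean of 1 CPM over both libraries. With 1 library per group there is no test and no p-value. Genes were counted by a 2-fold rule. Ratios have exact conditional binomial and shares exact binomial (Clopper-Pearson) 95% intervals, and levels exact Poisson ones. These intervals and the floors of 3 counts cover counting error only, and reads copied by PCR are not independent molecules. On simulated libraries (19595 genes) 2-fold was passed by 99 of 100 genes at 3-fold, by 4 of 99 at 1.5-fold and by 30 of 13974 unchanged ones. The simulated counts held Poisson counting error only, with no variation between cultures or library preparations. They therefore do not give the rate of false 2-fold calls in the real libraries. Exon lengths and overlaps are from GENCODE M21 and promoters from RefSeq. The members and lists were chosen with earlier results of these data known. Named are the 8 members, Ccdc25, up to 3 genes per list by absolute log2 fold and the 2 nearest genes of Hes1, Hes5 and Heyl; others are marked. Alternatives were DESeq2 1.42.0 size factors, total counts, the deposited CPM, other minimums, a prior count of 5, a 1.5-fold threshold and the longest transcript as length.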

Additional observations from a re-analysis of the deposited data

How the results depend on the processing

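The log2 folds of the 8 genes were recomputed under other scalings, minimums and a larger prior count, giving 45 values. All 45 kept their direction and 44 stayed within the counting interval; the exception was Rbpjl, whose fitted log2 fold is 7.39 and became 4.15 with a prior count of 5. Hey1 ranged from 0.94 to 0.99 and so stayed under 2-fold, Hey2 from 1.10 to 1.15 and Rbpj from 1.13 to 1.18. With a minimum of 10 CPM, 2 members (Hes5 and Rbpj) instead of 5 were 2-fold higher, because Hey2, Heyl and Rbpjl fall under that minimum, and 4.91% of all genes were higher there. At 1.5-fold, 1 member (Hes1) counted as lower and 6 as higher, beside 15.96% of all genes that were higher and 15.7% that were lower by as much, and of the pathway genes 23 were higher and 8 lower. At a minimum of 10 CPM the median log2 fold of the Notch ligands was -0.70 instead of -0.18 and that of the other Hes-related genes 0.13 instead of 1.12. The median of the Rbpj corepressors was -0.031 after total-count scaling and -0.031 with the authors' values, against 0.021, and the median of all genes was 0.012 without a minimum. With the longest transcript as length, Hey2 at 3.11 stood above Heyl at 2.40 CPM per kilobase in the sh1 library. No paired analysis was possible because each group has 1 library.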

Other observations

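Genes that share the promoter words of Hes5 can be set beside the rest. Of 10272 genes past the minimum with a promoter entry, 7.48% were at least 2-fold higher in the sh1 library and 7.42% at least 2-fold lower. Of the 665 whose promoter holds GTGGGAA on either strand, 69 (10.4%) were higher and 8.27% lower, and their median log2 fold was 0.016. For the 2419 with the core TGGGAA these shares were 8.52% and 7.07%. These groups overlap, include Hes5, Hey2 and Rbpjl, and were not tested.

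Hes3 lies beside Gpr153 on chromosome 4 with no shared exonic base. Gpr153 had 96 control and 529 sh1 counts, a ratio of 5.89 (4.73 to 7.40), beside 1 and 25 for Hes3.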
